A study of Mus musculus with 4 samples.

Results

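The 10 genes described here are the circadian clock genes Arntl, Clock, Dbp, Hlf, Tef, Nr1d1, Nr1d2, Per1, Per2 and Per3, taken by name from the 32285 genes of 4 single-cell libraries of mouse renal cortex. At each of 2 ages, 6 weeks (young) and 24 months (aged), 1 library was made from male Tfeb fl/fl mice, called control here, and 1 from male Tfeb fl/fl KAP mice, called KAP. Each library pooled the cortex of 2 or 3 mice before digestion, so that 1 library stands for each condition, and no test between conditions is possible. Both genotypes carry floxed Tfeb, the gene of a transcription factor of the lysosomal pathway, and KAP mice also carry Cre under the promoter of the kidney androgen-regulated protein, active in the S3 part of proximal tubules. The mice lived on a light/dark cycle with free access to food, and the time of day at which kidneys were taken is not stated in the labels or methods. Age, genotype, collection and library can therefore not be told apart in any comparison below.

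The circadian clock is a feedback loop of transcription that runs in nearly every cell. BMAL1, the product of Arntl, pairs with CLOCK and activates genes through E-boxes, among them the Per and Cry repressors of the pair, the REV-ERB repressors Nr1d1 and Nr1d2, and Dbp. The REV-ERB proteins in turn repress Arntl, so that Arntl peaks about opposite to Dbp and Nr1d1 over the day. DBP, TEF and HLF are PAR bZIP factors that activate genes through D-boxes. In the kidney, the clock is known for daily rhythms in sodium transport, filtration and tubular metabolism.

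After filtering, the libraries held 10045, 7895, 5704 and 6547 cells in the order young control, young KAP, aged control and aged KAP, with median depths of 11801 to 14735 UMIs a cell. The deposited matrices summed to between 1.26e+08 and 1.95e+08 UMIs, and pairs of libraries shared 10 to 23 cell barcodes. Clustering without the clock genes gave 13 cell classes with at least 20 cells in every library, named from marker lists: S1/S2-like and S3-like proximal tubule, loop of Henle-like, distal convoluted-like, connecting tubule-like, principal-like, type A and type B intercalated-like, glomerular endothelial-like, other endothelial-like, podocyte-like, mesangial or mural-like, and myeloid-like cells. The larger S3-like clusters rested on 4 of 7 listed markers. Their marker scores (mean log2 ratio of a class's markers to the other clusters) were 0.49 to 0.81. The minimum score of 1 asked of other classes was not asked of these 2 proximal tubule classes. At resolution 0.5, a cluster of 2522 cells was named S1/S2-like at 0.2461 against 0.2459 for S3-like. The split of the proximal tubule into these 2 classes is therefore uncertain. As a check of the labels, Tfeb in S3-like cells was 6.79 CPM (UMIs of the gene scaled to the UMI total of its class) in the young control library and 4.86 CPM in the young KAP library, a log2 ratio of -0.48 (exact 95% interval -0.82 to -0.15). In the aged libraries it was 5.21 and 2.17 CPM, a log2 ratio of -1.26 (-1.72 to -0.82), so Tfeb in S3-like cells was lower in the KAP library at both ages. In S1/S2-like cells the log2 ratio of Tfeb was 0.13 (-0.12 to 0.38) in the young and -0.44 (-0.76 to -0.13) in the aged libraries. Libraries of this kind count the 3′ end of transcripts, and the sources used here do not name the floxed exons. Intervals in this report cover counting error only, not the spread between mice.

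Summed over all kept cells, Dbp showed the widest spread of the 10 genes. Its level was 6.61 CPM in the young control library, 8.64 CPM in the young KAP library, 36.1 CPM in the aged control library and 13.8 CPM in the aged KAP library. Arntl ran the other way at 18.5, 17.95, 8.57 and 12.9 CPM. For both genes the young libraries lay close together, the aged control library lay farthest from them, and the aged KAP library lay between. Per3, a Period gene, followed Dbp with levels of 5.50, 7.08, 18.9 and 10.6 CPM. Nr1d2 stood at 19.6, 20.2, 46.8 and 33.3 CPM, and Tef at 29.3, 30.8, 58.6 and 47.0 CPM, again with both aged libraries above both young ones. Nr1d1 was at 40.1, 29.8, 64.4 and 60.8 CPM, with the aged libraries close to each other. Clock stood at 48.2, 46.7, 41.4 and 45.8 CPM, a narrow range in which both aged libraries lay below both young ones. Per1 at 15.5 to 18.3 CPM and Per2 at 5.48 to 8.67 CPM showed no split between young and aged libraries. Hlf stood at 65.6, 60.3, 97.5 and 63.0 CPM, and since it is mostly counted in proximal tubule cells, whose share differs between libraries, the comparisons below are made within classes. In such sums, fewer cells of a type and less RNA per cell cannot be told apart.

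The members differed in where they were expressed. Hlf was a proximal tubule gene in these libraries, at 120 to 158 CPM in S3-like and 103 to 155 CPM in S1/S2-like cells, and at 17.5 to 50.9 CPM in mesangial or mural-like cells, the next in order. The range of the S1/S2-like cells over the 4 libraries did not overlap that of the mesangial or mural-like cells. Tef also led in S3-like cells, at 57.9 to 79.5 CPM, with an overlap with the S1/S2-like range of 37.4 to 77.4 CPM. Arntl was highest in glomerular endothelial-like cells, at 37.6 to 52.9 CPM, above the range of every other class, and lowest in S3-like cells at 2.55 to 10.3 CPM. Clock was highest in podocyte-like cells and lowest in S3-like cells, with means over the 4 libraries of 85.1 and 25.5 CPM, and the top 5 classes overlapped in sequence.

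Per1, which is also an immediate early gene induced by cAMP and glucocorticoids, was highest in podocyte-like cells at 70.0 to 105 CPM and in myeloid-like cells at 48.9 to 84.5 CPM. Both lay above the other 11 classes, and S3-like cells were lowest at 6.89 to 9.84 CPM. Per2 was highest in principal-like cells of the collecting duct, at 9.64 to 19.9 CPM, and Nr1d1 was also highest there at 42.9 to 117 CPM. Nr1d2 was led by S1/S2-like cells, at 24.7 to 55.6 CPM. For Nr1d1, Nr1d2, Dbp and Per3, neighbours in the order of classes overlapped in their ranges all the way down. Dbp reached 36.7-fold between its lowest and highest library in type B intercalated-like cells, where its counts were 4, 6, 65 and 17 UMIs.

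**Figure D1:**
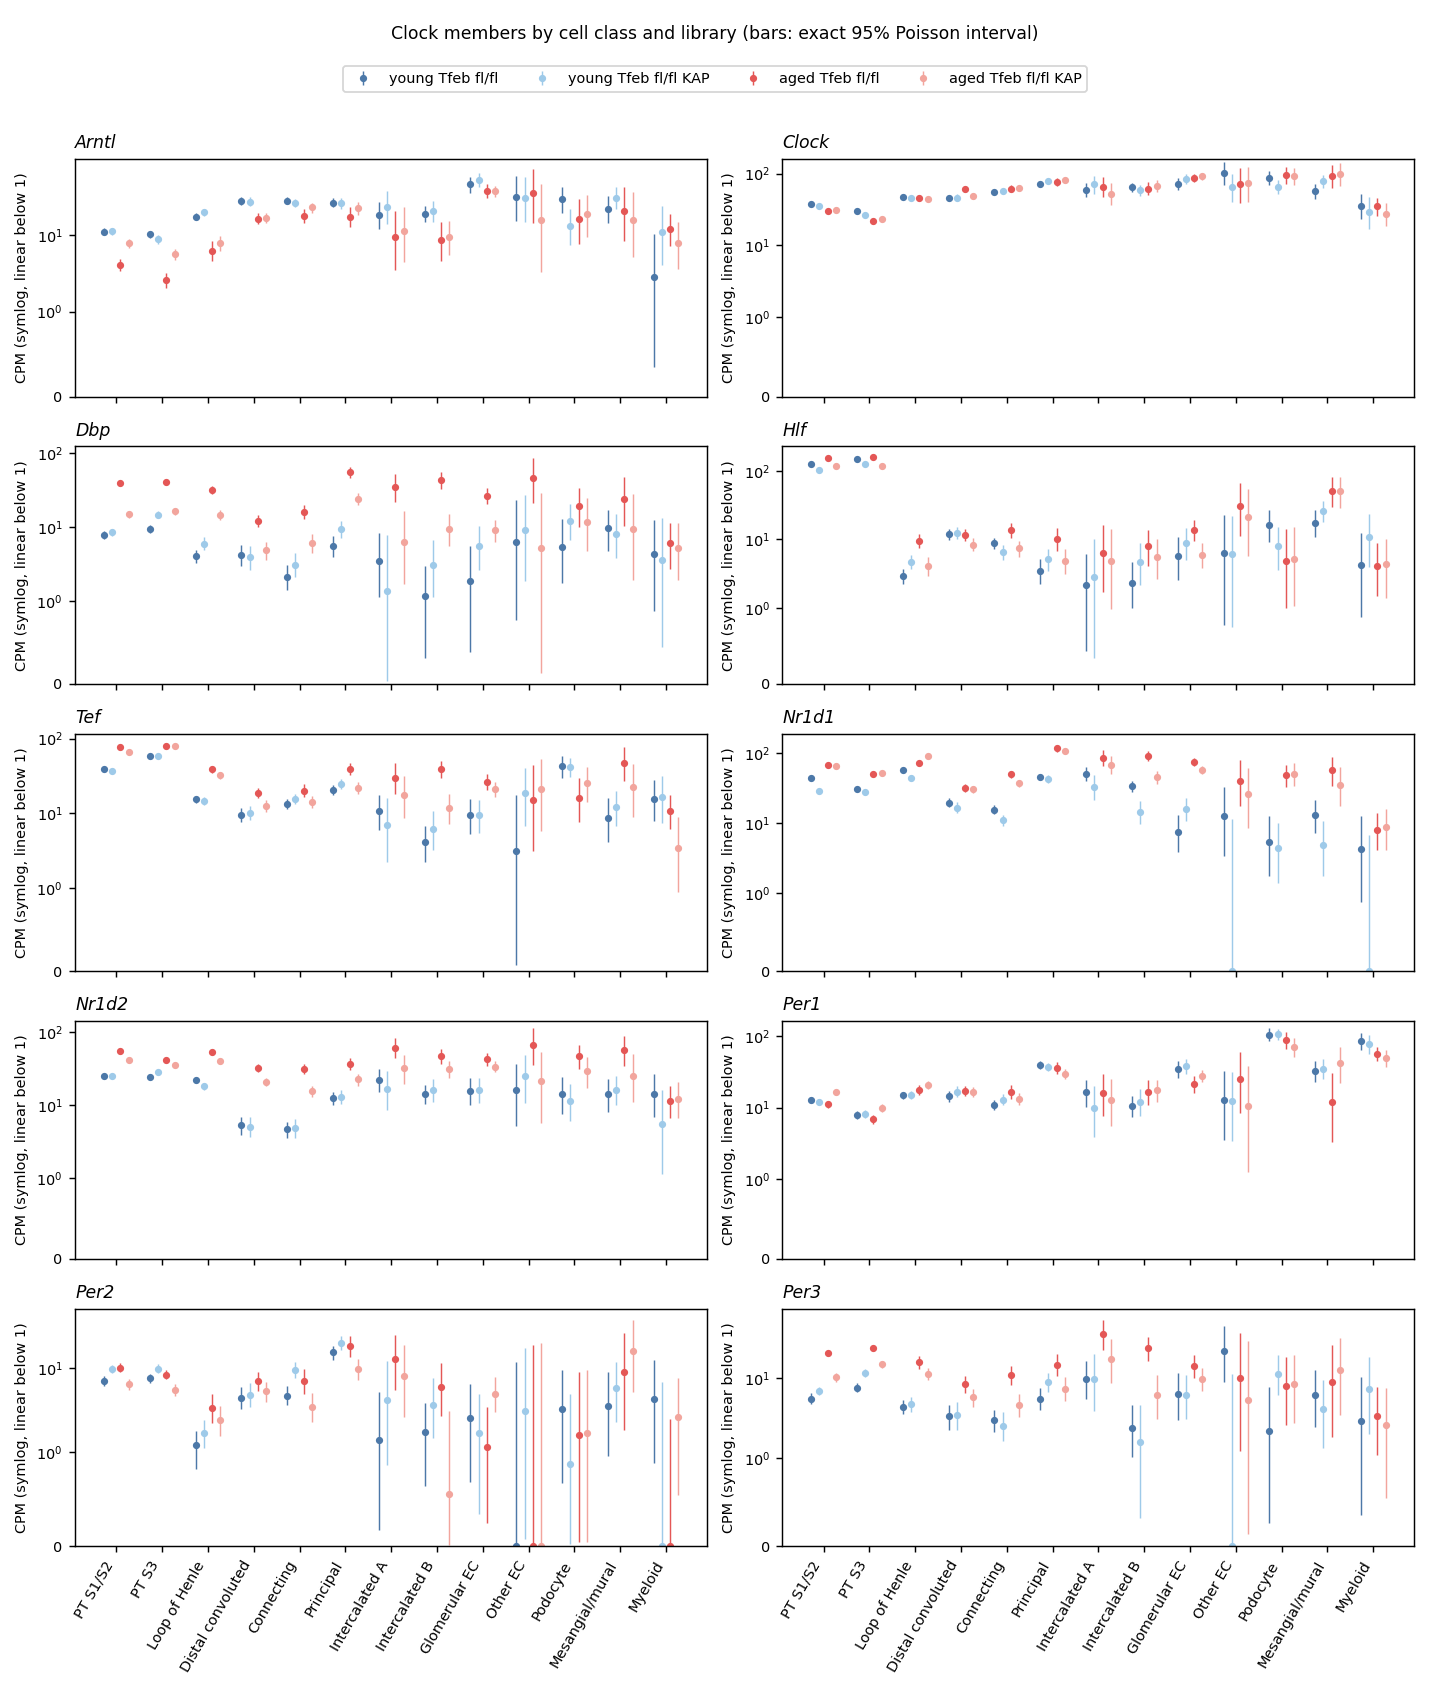
Level of each clock gene in 13 cell classes (x axis) of the 4 libraries, in CPM on an axis that is logarithmic above 1 and linear below (y axis). Points are the summed cells of 1 class in 1 library with exact 95% Poisson intervals. The aged control library is the highest for Dbp in 13 of 13 classes and for Nr1d2 in 12 of 13. Some of these classes hold few counts and have overlapping intervals. In myeloid-like cells, Dbp had 9 UMIs in the aged control and 6 in the aged KAP library. The share of all genes with such an order is not given. Hlf stands far higher in the proximal tubule than elsewhere.

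Positions are those of the GENCODE annotation of GRCm38, the assembly known as mm10. Dbp lies at chr7:45705088-45710203 and Arntl at chr7:113207465-113314126, both on the plus strand, and Nr1d1 at chr11:98767932-98775333 and Per3 at chr4:151003652-151044665 on the minus strand. Exons of Nr1d1 share 263 bases with Thra and exons of Dbp share 539 bases with Sphk2, each on the opposite strand, and the sources used here do not say whether counting used the strand. In aged against young control, the median log2 ratio over classes was 0.21 for Thra and 0.08 for Sphk2, against 1.35 for Nr1d1 and 2.98 for Dbp.

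The promoters printed here hold elements through which clock genes are known to be regulated, by clock proteins (E-box and D-box) or by cAMP signalling, and were taken from RefSeq for GRCm38.p6 and written as the 250 bases before a transcription start, 5′ to 3′ on the gene's strand. Capitals mark each match to an E-box (CACGTG), a D-box (TTANNTAA), a cAMP response element (TGACGTCA) or the core of the element bound by REV-ERB proteins (AGGTCA), searched on both strands with no overlaps between motifs in these 3 windows. The Per3 window is chr4:151044666-151044915 on the minus strand, outside annotated exons but inside the Camta1 gene, and holds 2 D-boxes that start 205 and 158 bases before the start. The Tef window is chr15:81811164-81811413 on the plus strand, inside the Tef gene but outside its exons at an inner start site, with an E-box 138 bases before the start. The Hlf window is chr11:90390918-90391167 on the minus strand, outside annotated genes, with a cAMP response element 9 bases before the start.

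Per3: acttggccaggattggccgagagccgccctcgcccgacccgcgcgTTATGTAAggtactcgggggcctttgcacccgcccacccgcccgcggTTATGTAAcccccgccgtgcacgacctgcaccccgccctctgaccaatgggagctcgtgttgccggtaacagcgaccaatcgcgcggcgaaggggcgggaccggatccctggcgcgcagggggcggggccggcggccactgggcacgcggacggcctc

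Tef: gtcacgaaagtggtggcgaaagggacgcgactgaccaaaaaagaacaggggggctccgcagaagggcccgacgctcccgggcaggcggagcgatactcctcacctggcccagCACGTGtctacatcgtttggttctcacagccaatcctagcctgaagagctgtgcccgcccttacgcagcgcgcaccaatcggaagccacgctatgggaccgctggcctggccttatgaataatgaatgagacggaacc

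Hlf: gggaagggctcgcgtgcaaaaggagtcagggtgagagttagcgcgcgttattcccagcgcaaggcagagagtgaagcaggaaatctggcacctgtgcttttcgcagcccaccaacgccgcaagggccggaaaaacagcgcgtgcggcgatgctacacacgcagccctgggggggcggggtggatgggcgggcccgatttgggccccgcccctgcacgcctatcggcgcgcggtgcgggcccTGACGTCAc

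RefSeq windows were found for 9 of the 10 members, 14 windows in all. Windows of 300 bases (250 before and 50 after the start) around all 32851 starts in that table held an E-box in 7.15%, a D-box in 6.00%, the AGGTCA core in 16.3% and the cAMP response element in 1.79%. Windows of Dbp and Nr1d1 held none of the 4 motifs, which says only that these letters are not within the window. Matches also lay in windows not printed here. Another Tef window held an E-box and a D-box, and the Per1 window an E-box and the AGGTCA core. Windows of Nr1d2, Clock and Arntl held the AGGTCA core. The printed windows are a choice among those with matches and are not set against the shares over all starts. A match is a description of the letters and not evidence of binding.

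Aged against young control mice asks what differs in the clock genes with age in the control genotype. In the aged library, Arntl was lower in 11 of 12 classes and Dbp, Nr1d1, Per2 and Per3 were higher in every class compared. Dbp had the largest ratio of the members, with a median log2 ratio over 9 classes of 2.98, that is 7.87-fold. A class entered a gene's comparison with at least 20 cells in each library and at least 20 UMIs of the gene over both. For Per2 these were 6 classes, and classes left out for few UMIs went both ways. Per2 was 2.52 CPM in the young and 1.17 CPM in the aged library in glomerular endothelial-like cells. In type A intercalated-like cells it was 1.42 and 12.6 CPM. With no UMI filter, 2 members had 1 direction in every class. The 10 genes were chosen with these ratios already known, so that counts over them describe the libraries and test nothing.

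Dbp in S3-like cells was 9.47 CPM in the young control library and 41.2 CPM in the aged one, from 290 and 1226 UMIs, a log2 ratio of 2.12 (1.94 to 2.31). In S1/S2-like cells it was 7.87 and 39.9 CPM, a log2 ratio of 2.34 (2.14 to 2.54). The smallest ratio was in distal convoluted-like cells at 1.52 (0.99 to 2.07) and the largest in type B intercalated-like cells at 5.20 (3.77 to 7.12). All 9 intervals left out 0, and the direction did not depend on the cell class.

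Arntl went the other way, at 10.3 CPM in the young and 2.55 CPM in the aged S3-like cells, from 314 and 76 UMIs, a log2 ratio of -2.01 (-2.39 to -1.64). In loop of Henle-like cells it was 17.4 and 6.24 CPM, a log2 ratio of -1.48 (-1.94 to -1.05). The median over 12 classes was -0.82, and intervals of 7 of the 11 lower classes left out 0. Myeloid-like cells were the exception at 2.08 (0.01 to 5.23), from 2 and 18 UMIs. Clock, the partner of Arntl, was higher in 7 and lower in 6 of 13 classes with a median of 0.11. Its ratio was -0.48 (-0.63 to -0.34) in S3-like and -0.30 (-0.43 to -0.18) in S1/S2-like cells. It was 0.40 (0.22 to 0.59) in distal convoluted-like and 0.70 (0.03 to 1.34) in mesangial or mural-like cells. Intervals of the other classes held 0.

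Nr1d1 and Nr1d2, which encode REV-ERBα and REV-ERBβ, had medians of 1.35 and 1.53. With only the classes of 100 or more cells, the median of Nr1d1 was 0.73. In glomerular endothelial-like cells, Nr1d1 was 7.55 and 75.5 CPM, from 12 and 194 UMIs, a log2 ratio of 3.32 (2.48 to 4.30), while in loop of Henle-like cells its ratio was 0.29 (0.15 to 0.44). Nr1d2 was highest in connecting tubule-like cells by ratio, at 2.77 (2.34 to 3.22), and lay below 0 only in myeloid-like cells at -0.33 (-1.54 to 0.96). Per3 had a median of 1.84 and a range of 1.20 to 3.35 over 9 classes. Per2 had a median of 0.54 over 6 classes, with 3 intervals that left out 0. Per1 did not follow, with 8 of 12 classes lower and a median of -0.17.

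The PAR bZIP factors Tef and Hlf differed by class. Tef had a median of 0.99 and ranged from -1.40 in podocyte-like to 3.27 in type B intercalated-like cells. Hlf had a median of 1.27 but only 0.06 (0.01 to 0.12) in S3-like cells, where its level was highest, and 1.72 (1.22 to 2.22) in loop of Henle-like cells. Pooled over classes by a Mantel-Haenszel ratio, Hlf had 0.19. Dbp, Nr1d1, Per2 and Per3 had the same direction in every class compared, 4 of the 10 members, and 8.35% of the 10918 genes compared in at least 6 classes did. Dbp, Hlf, Nr1d1, Nr1d2 and Per3 had a median past 1 on the log2 scale, and 1.42% of those genes did. Since the members were chosen by these ratios, nothing is read from the difference. The median of all genes was 0.12.

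**Figure D2:**
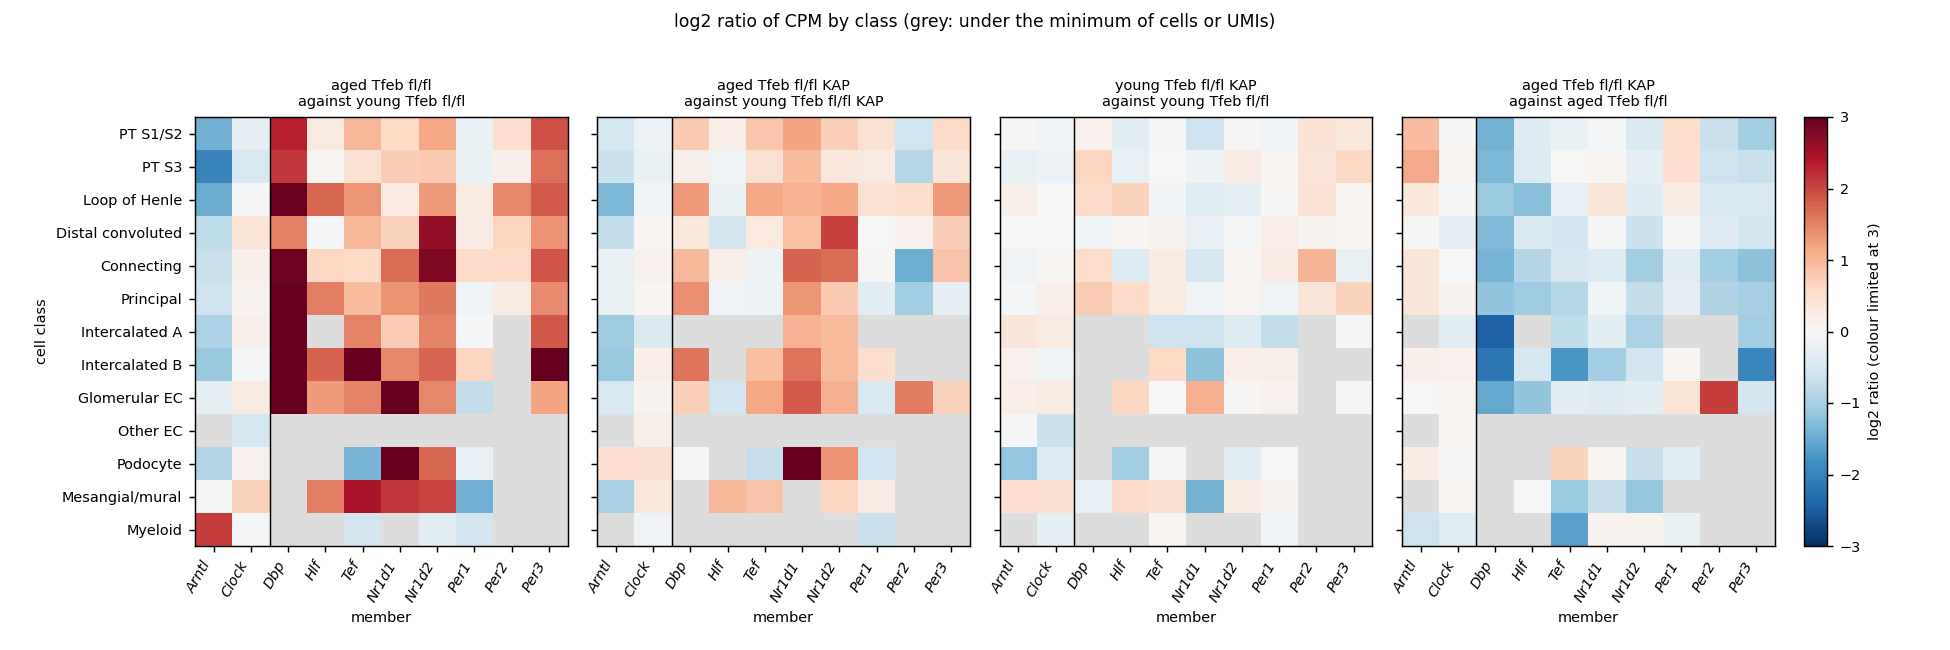
Log2 ratio of CPM of each member (x axis) in each cell class (y axis) for the 4 comparisons, with red for higher and blue for lower in the first-named library and grey where cells or UMIs were too few. Arntl is blue in 11 of 12 classes in aged against young control, while Dbp and Per3 are red in 9 of 9.

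Aged against young KAP mice uses 2 libraries that the comparison above does not share. Nr1d1 and Nr1d2 were higher in every class compared, 10 and 11 of them, with medians of 1.25 and 0.96. Arntl was lower in 10 of 11 classes with a median of -0.66, and its loop of Henle-like ratio was -1.35 (-1.71 to -0.99). Dbp was higher in 8 of 9 classes with a median of 0.80, against 2.98 in the control libraries. This difference between genotypes was not tested, since each ratio rests on 1 pair of libraries.

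Dbp in S3-like cells was 14.8 and 16.3 CPM in the young and aged libraries, a log2 ratio of 0.15 (-0.06 to 0.35) that did not leave out 0, and in S1/S2-like cells it was 0.80 (0.57 to 1.02). Principal-like cells gave 9.44 and 24.3 CPM for Dbp, a ratio of 1.36 (0.89 to 1.85). Per3 had a median of 0.69 over 7 classes and Tef a median of 0.65 over 10 classes. Per2 had a median of -0.59, which turned to 0.13 without the proximal tubule classes, and was lower in 4 of 7 classes. Its ratios were -1.46 (-2.14 to -0.83) in connecting tubule-like, -1.05 (-1.56 to -0.55) in principal-like, -0.85 (-1.15 to -0.55) in S3-like and -0.59 (-0.87 to -0.31) in S1/S2-like cells, while the intervals of the 3 higher classes held 0. Hlf and Per1 had medians of -0.10 and 0.04. Clock was higher in 8 of 13 classes with a median of 0.08. It was lower in S1/S2-like cells at -0.17 (-0.30 to -0.04) and in S3-like cells at -0.22 (-0.38 to -0.06). Of the members, 2 had the same direction in every class, Nr1d1 and Nr1d2, against 6.3% of 10948 genes, and Nr1d1 alone had a median past 1, against 1.15%.

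Young KAP against young control mice compares genotypes before aging. Arntl had a median of 0.01 over 12 classes, with 6 higher and 6 lower, and Clock one of -0.02. Nr1d1 was lower in 9 of 10 classes with a median of -0.44, and its level in S1/S2-like cells was 45.0 CPM in the young control and 29.4 CPM in the young KAP library, a log2 ratio of -0.62 (-0.73 to -0.50). Per2 was higher in 6 of 6 classes with a median of 0.41. Dbp was 9.47 and 14.8 CPM in S3-like cells, a ratio of 0.64 (0.41 to 0.87), but it was 0.12 (-0.12 to 0.37) in S1/S2-like cells. Hlf was 128 CPM in the young control and 103 CPM in the young KAP library in S1/S2-like cells. In S3-like cells it was 152 and 128 CPM. Over 9 classes Hlf was higher in 5 and lower in 4, with a median of 0.06. Per2 was the 1 member with the same direction in every class, against 4.9% of 10961 genes, and 0 members had a median past 1, against 0.447%.

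Aged KAP against aged control mice compares genotypes after aging. Dbp was lower in 9 of 9 classes with a median of -1.39, all 9 intervals below 0, and Per3 was lower in 9 of 9 with a median of -0.997. Dbp in S3-like cells was 41.2 CPM in the aged control library and 16.3 CPM in the aged KAP library, a log2 ratio of -1.34 (-1.5 to -1.18). Its values in S1/S2-like cells were 39.9 and 14.9 CPM, a ratio of -1.42 (-1.59 to -1.25). The other classes gave ratios from -1.12 in loop of Henle-like to -2.44 in type A intercalated-like cells.

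Nr1d2 was lower in 11 of 12 classes with a median of -0.61, and Tef in 10 of 12 with a median of -0.55. Hlf was lower in 8 of 9 with a median of -0.50. Nr1d1 was split, with 4 classes higher and 8 lower and a median of -0.09. Arntl was higher in 8 of 10 classes with a median of 0.27, and its largest ratios were in S3-like cells at 1.13 (0.73 to 1.55) and S1/S2-like cells at 0.94 (0.60 to 1.27). In the other classes its ratio ran from -0.62 in myeloid-like to 0.37 in connecting tubule-like cells. It was 0.04 in distal convoluted-like cells, and 0.15 in type B intercalated-like cells from 17 and 13 UMIs. Per1 was higher in both proximal tubule classes, at 0.56 (0.35 to 0.77) in S1/S2-like and 0.51 (0.25 to 0.78) in S3-like cells, although its median over classes was 0.01. Dbp and Per3 had the same direction in every class, 2 members against 2.95% of 10797 genes, and Dbp had a median past 1, against 0.528%. This comparison shares a library with each of the age comparisons, so that its values are not independent of theirs.

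The pattern of Arntl against the other genes was set side by side by a phase contrast. This was the median of the log2 ratios of 8 members, called output members here, minus the ratio of Arntl. The 8 were Dbp, Hlf, Tef, Nr1d1, Nr1d2, Per1, Per2 and Per3. The label is loose, since the Per and REV-ERB genes are repressors within the loop. The contrast was 2.12 in aged against young control, with 7 of 8 outputs higher, and 1.32 in aged against young KAP, with 6 of 8. It was 0.05 in young KAP against young control, where 7 of 8 outputs were also higher but their median was 0.05, and -0.85 in aged KAP against aged control, where 1 of 8 outputs was higher. By class it was computed where Arntl and at least 4 outputs could be compared, and it was positive in 11 of 11 such classes in the first comparison, from 1.6 to 2.91, and in 9 of 10 in the second. Myeloid-like cells, left out of the first with 3 outputs, had the opposite pattern there, with Arntl at 2.08 and Tef, Nr1d2 and Per1 at -0.55, -0.33 and -0.58. In the young comparison of genotypes it was positive in 6 and negative in 5 classes. In the aged comparison of genotypes it was negative in 9 of 10. The median of all genes was 0.12, 0.08, -0.01 and -0.04 in the 4 comparisons, in the order in which they were described. The share of all genes above 0 is not given, and the members were chosen with these ratios known. Classes of 1 library are not replicates, so the counts of outputs and classes describe these libraries and test nothing. The sign of the contrast does not need Arntl and the outputs to lie on opposite sides of 0. In principal-like cells of aged against young KAP, counted as positive, the outputs were at -0.13 and Arntl at -0.22. In glomerular endothelial-like cells of the aged comparison of genotypes, counted as negative, they were at -0.35 and -0.02. Arntl on one side and Dbp and Nr1d1 on the other is the relation that these genes have over the day in many tissues. A difference in collection time cannot be told apart from age or genotype in these libraries.

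Inside the proximal tubule, 8 of the 10 clusters had at least 20 cells in every library and were also compared one by one. Arntl was lower in 8 of 8 clusters in aged against young control, with a median log2 ratio of -1.5, and Dbp was higher in 8 of 8 with 2.28. In aged against young KAP, Arntl was lower in 8 of 8 with -0.67, Nr1d1 was higher in 8 of 8 with 1.06, and Dbp was higher in 6 of 8 with 0.48. In aged KAP against aged control, Dbp was lower in 8 of 8 with -1.5 and Arntl higher in 7 of 7 with 0.85, while Per1 was higher in 8 of 8 with 0.45. Clock was lower in 7 of 8 clusters in each age comparison, with a median of -0.22 in the control and in the KAP libraries. Hlf was lower in 8 of 8 clusters in each comparison of genotypes, with -0.27 in the young and -0.41 in the aged libraries. Clusters of 1 library come from the same mice and are not replicates.

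**Figure D3:**
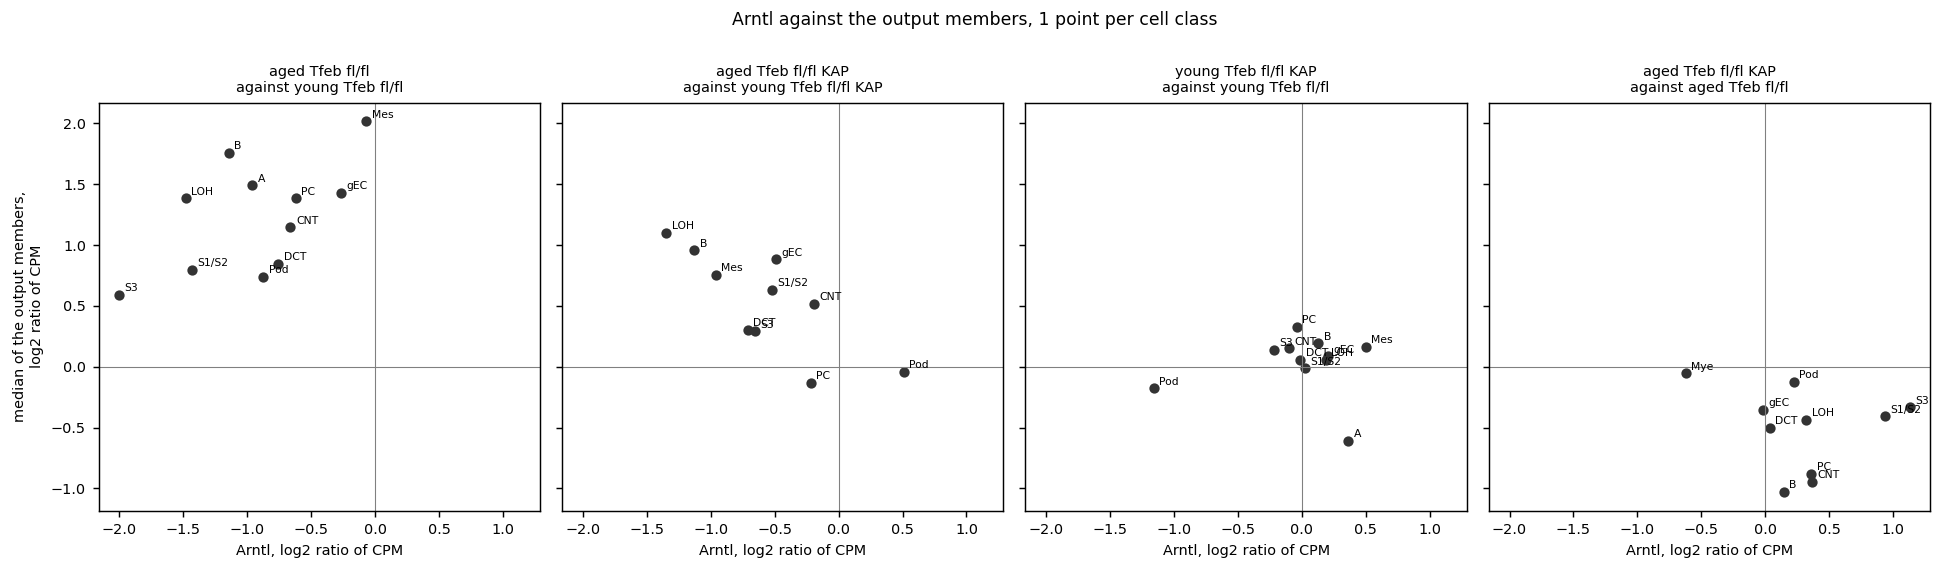
Log2 ratio of Arntl (x axis) against the median log2 ratio of the output members (y axis), 1 point per cell class, in the 4 comparisons, where S1/S2 and S3 are the proximal tubule classes, LOH the loop of Henle, DCT the distal convoluted and CNT the connecting tubule, PC principal, A and B intercalated, gEC glomerular endothelial, Pod podocyte, Mes mesangial or mural and Mye myeloid-like cells. The 11 classes with at least 4 outputs compared lie in the upper left in aged against young control, where myeloid-like cells (Arntl at 2.08 and 3 outputs below 0) are not plotted, while in the young comparison of genotypes the contrast spans -0.97 to 0.98.

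Other clock genes were taken from a list of 16, of which 12 or 13 could be compared in at least 6 classes. Cry1, which is repressed by REV-ERB and peaks near Arntl, was lower with age in 10 of 10 classes of the control libraries with a median log2 ratio of -1.44, and in 9 of 10 classes of the KAP libraries with -1.65. Its levels in connecting tubule-like cells were 9.48, 10.9, 2.13 and 3.19 CPM in the 4 libraries, so both aged libraries lay below both young ones. Npas2, a paralog of Clock, had a median of -0.98 in aged against young control, lower in 8 of 8 classes, but 0.19 in the KAP libraries. Its S3-like levels were 8.23, 6.01, 2.42 and 5.56 CPM, with the aged control library the lowest.

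Cry2 was higher in 10 of 10 classes in aged against young control with a median of 0.83, and lower in 10 of 10 classes in aged KAP against aged control with -0.56. Bhlhe40, the gene of the DEC1 repressor that E-boxes also drive, had medians of 0.81 in 13 of 13 classes and -1.10 in 14 of 14 classes in the same comparisons. Of the list, 7 had a median above 0 and 5 below in aged against young control, and the list's median was 0.21. For the other comparisons the counts were 8 and 5 in aged against young KAP, 7 and 5 in the young and 5 and 8 in the aged comparison of genotypes.

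Genes known to be rhythmic in many tissues were a list of 8. In aged against young control, Usp2, a deubiquitinase, was higher in 9 of 9 and Wee1, a kinase of the cell cycle, in 8 of 8 classes, with medians of 0.70 and 0.63. In the KAP libraries these were 0.49 and 0.15. The list had a median of 0.39 and 5 of 8 above 0 in the former, and 0.23 and 6 of 8 in the latter, against a median of all genes of 0.12 and 0.08. Of 10 kidney genes known to follow the clock, channels, transporters and their regulators, 7 of the 8 compared were above 0 in aged against young control and 3 of 9 in the KAP libraries. Their list medians were 0.24 and -0.12. Aqp2 had a median of 0.90 in aged against young control, over classes from -5.36 to 2.51. Its highest class stood at 10669.7 CPM in the young and 9182.5 CPM in the aged control library. The part of free RNA from other cells in such medians was not tested. Zbtb16, a gene induced by glucocorticoids, had median log2 ratios with age of 3.09 and 4.39, and Fkbp5, induced by the same hormones, had 0.34 and 1.03. The list of 8 glucocorticoid-induced genes had 5 above 0 in the control and 7 in the KAP libraries. In the control libraries, Tsc22d3, Sgk1 and Mt1 of this list lay below 0, at -0.37, -0.13 and -0.18. Tsc22d3 is also in the list of rhythmic genes and Sgk1 in that of kidney genes. The share of all genes above 0 is not given here, so nothing is read from the counts above 0 in these lists.

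**Figure D4:**
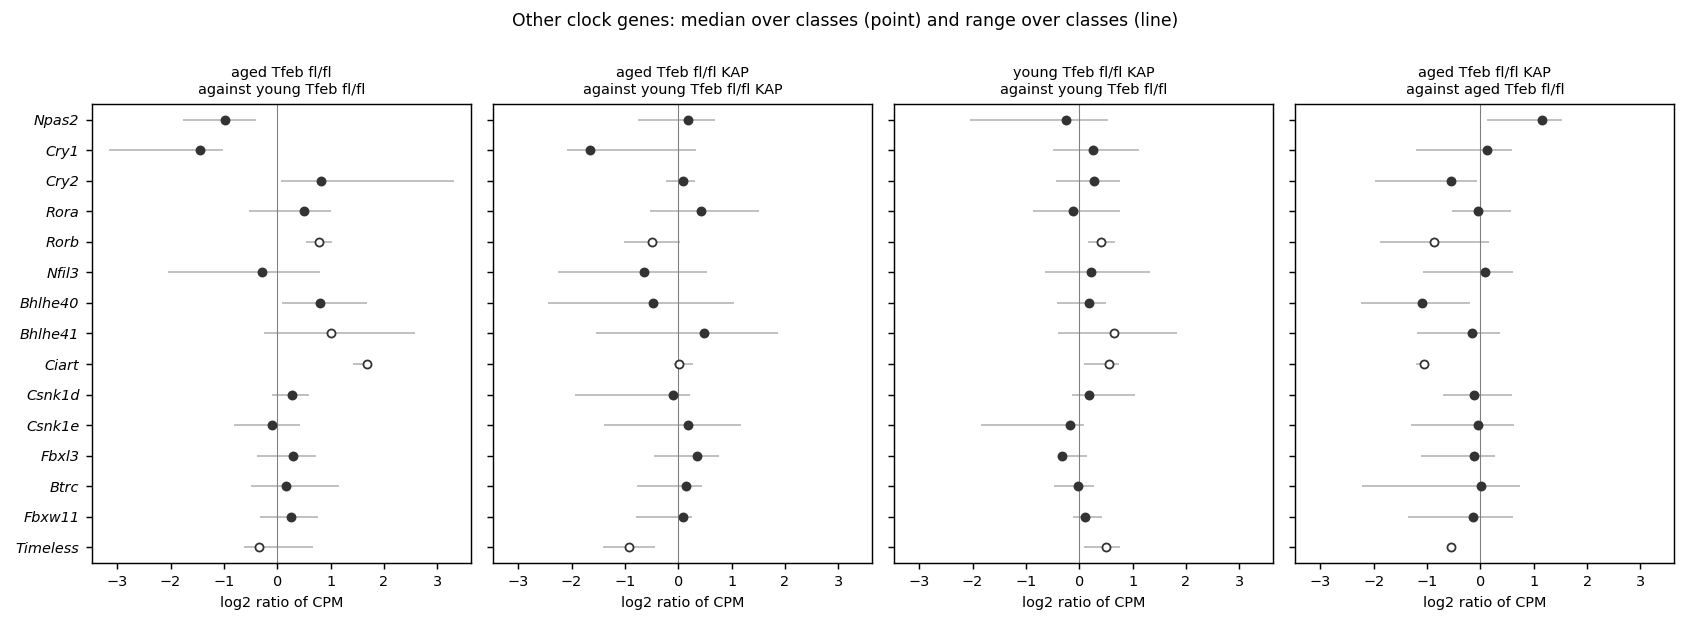
Median log2 ratio of CPM over cell classes (filled points; open points where fewer than 6 classes could be compared) and the range over classes (lines) for 15 other clock genes in the 4 comparisons. Cry1 lies below 0 with age in both genotypes, at -1.44 and -1.65, while Cry2 and Bhlhe40 lie above 0 in aged against young control and below 0 in aged KAP against aged control.

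Genes that respond to handling of the tissue differed in some of these comparisons, and their part in the results was not tested. In aged KAP against aged control, 13 of 13 immediate early genes had a median below 0, with a list median of -0.65, and 6 of 6 heat shock genes did, with -0.35, where Per1 had 0.01. In aged against young control the list medians were 0.10 and 0.42, and in aged against young KAP -0.70 and -0.55. In young KAP against young control, where the phase contrast was 0.05, 12 of 13 immediate early and 6 of 6 heat shock genes had a median above 0, with list medians of 0.19 and 0.48. The median of all genes was -0.04 in the aged and -0.01 in the young comparison of genotypes. The share of all genes on either side of 0 is not given, so nothing is read from these counts. Of the 2 genes listed as induced by cold, Cirbp had medians of -0.51 in aged against young control and 0.48 in aged against young KAP, and Rbm3 had 0.10 and 0.36. In the comparisons of genotypes, Cirbp had -0.60 in the young and 0.50 in the aged libraries, and Rbm3 had -0.38 and -0.06. Abundant proximal tubule genes, a measure of free RNA in other cells, had a list median of -0.41, -1.05, -0.22 and -1.02 in the 4 comparisons, in the order in which they were described. In the young comparison of genotypes, the medians of the single genes ran from -5.00 for Kap to 0.75 for Fbp1. Hlf in cells outside the proximal tubule was 1.52 to 42.7% of its tubule level, and the tubule genes were 0 to 6.81% of theirs; the part of free RNA in the Hlf counted there was not tested.

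Levels were centred within each class and compared over the 52 combinations of class and library, for the 6754 genes with a mean of at least 20 CPM. Dbp, Arntl, Per2 and Per3 lay below this level, so they were not among the genes ranked. Of the ranked genes, the one that ran most like Dbp was Nr1d2, with a Pearson correlation of 0.85. Crebrf, Kmt2a, Prdm2 and Tnrc6b followed at 0.77 to 0.81. The most opposite were Ndufc2, Ndufv2 and Atp5f1, nuclear genes of the mitochondrial respiratory chain and ATP synthase, at -0.80, -0.75 and -0.74. The share of UMIs from mitochondrially encoded genes had medians over classes of 21.0, 17.8, 15.7 and 18.1%. The order is young control, young KAP, aged control and aged KAP, with the lowest in the aged control library. Over cells, the medians in the same order were 20.3, 19.6, 18.6 and 16.7%, with the lowest in the aged KAP library. Malat1, a nuclear RNA, had medians of 18143.5, 19039.9, 22115.4 and 24463.5 CPM, with both aged libraries above both young ones. The part of this RNA makeup in the results was not tested. For Arntl, the 5 closest were Ube2m, Cct8, 1810058I24Rik, Mgat4b and Prdx1, at 0.69 to 0.76, and its correlations with Nr1d2, Tef and Nr1d1 were -0.62, -0.60 and -0.55. Classes of 1 library share its depth, mice and handling, so these values are descriptions without a p. The median log2 ratio of Kmt2a in aged against young control was 0.65 and that of Prdx1 -0.39, against 2.98 for Dbp and -0.82 for Arntl.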

How the data were processed

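Renal cortex of 4 groups of mice was profiled as 1 single-cell library per group. Per the labels and the study's methods, the authors made the deposited UMI count matrices with 10x 3′ chemistry and Cell Ranger 6.0.0 on mm10, and corrected them for background RNA with SoupX. Seurat 4.4.0 is also named in the submitters' processing notes. Explicit zeros made up 2.90 to 12.9% of the stored entries, fewest in the young control library. For Nr1d1 they were 3.82, 13.2, 9.69 and 10.3% of its entries in young control, young KAP, aged control and aged KAP. For Dbp they were 3.62, 16.0, 9.58 and 13.3% in the same order. The part of this difference in the ratios was not tested. The gene and barcode lists hold names only.

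Cells with at least 1000 genes and at most 50% mitochondrial counts were kept, and 2216 predicted doublets were removed, leaving 30191 of 48085 barcodes. Cells were clustered (scanpy 1.11.5, Leiden resolution 1.0, 30 principal components, Harmony integration) on 2000 variable genes without the clock genes, and clusters were named from marker lists, with the naming rule adjusted after the clusters were seen. Counts were summed per class and library, scaled to CPM and compared as log2 ratios with exact 95% (Clopper-Pearson) intervals, in classes with at least 20 cells per library and 20 UMIs over the pair. A zero was set to a floor of 3 counts. The named genes were the 10 members, the genes of the listed groups and the 5 genes most like Dbp and Arntl. With 1 library per condition no test between conditions was made, and the depth limits only counting error. Alternatives covered filters, clustering, scaling, depth and pooling over classes. The members and lists were chosen with earlier results of these data known. The method was tested on simulated data. The values of 1 gene of the list of other clock genes are not reported here.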

Additional observations from a re-analysis of the deposited data

Results flagged for a closer look

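Some heat shock genes moved one way in every class compared in 1 contrast and the opposite way in every class of the matching contrast. These differences were not tested. Hsp90aa1, a cytosolic chaperone, had a median log2 ratio of 0.35 in aged against young control and -0.32 in aged against young KAP. Between genotypes, Hsp90aa1 had 0.46 in the young and -0.28 in the aged libraries, Hspa8 had 0.47 and -0.22, and Hsph1 had 0.53 and -0.46. The contrasts by age and by genotype use the same 4 libraries, so the entries of Hsp90aa1 in both are not independent. None of the 10 clock genes met this criterion, which was applied only to the members and to genes of the lists named above. The abundant proximal tubule genes were left out. The share of all genes that meet it is not given, so nothing is read from this count.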

How the results depend on the processing

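The phase contrast kept its direction in 14 of 14 alternatives in 3 comparisons, at 1.5 to 2.24 in aged against young control, 0.99 to 1.39 in aged against young KAP and -1.01 to -0.49 in aged KAP against aged control. In the young comparison of genotypes it lay between -0.08 and 0.17 and was negative in 3. Per2 in aged against young KAP changed sign, to 0.13 without the proximal tubule classes and to 0.13 with no UMI filter. Other medians near 0 also changed sign, among them those of Clock and Per1 in every comparison. Per1 in aged against young KAP lay between -0.11 and 0.23. Hlf lay between -0.16 and 0.21 in aged against young KAP and between -0.47 and 0.57 in the young comparison. The number of members with 1 direction in every class became 2 in aged against young control with no UMI filter. In aged against young KAP it became 1 with cells thinned to 2000 UMIs, 1 with no UMI filter and 4 with 100 or more cells. In the young comparison it became 0 with doublets not removed, with clusters in place of classes, without the proximal tubule classes, with thinned cells and with no UMI filter, and in the aged comparison 4 with doublets not removed and 0 with no UMI filter. The cause was not tested. Nr1d1 in aged against young control was 0.73 to 1.46 and Hlf 0.19 to 1.56 over the alternatives. Size factors moved the median of all genes in that comparison from 0.12 to 0.01. No paired analysis was possible because each group holds 1 library.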
